A study of Xenopus laevis with 4 samples.

Results

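The genes described are the keratins, the annexins and other genes, some known from cornified layers, measured in embryonic skin of the frog Xenopus laevis. They were taken from the array by symbol: keratin (krt), annexin (anxa), S100 (s100a10, s100a11), uroplakin (upk1 to upk3), envoplakin (evpl), periplakin (ppl), plectin (plec), transglutaminase (tgm) and vimentin (vim) genes. The rule found 81 of 16745 probe sets, which stand for 56 of 11295 genes with a symbol of their own. Of these genes 45 had 1 probe set, and anxa5.S had the most, 7. Families differed in size, with 39 keratin, 23 annexin, 6 uroplakin, 5 plakin, 4 S100, 2 transglutaminase and 2 vimentin probe sets. No probe set carried the symbol plec alone. A further 4 probe sets named a member beside a second symbol and were not used. The suffixes .L and .S mark the long and short homeologs, the gene copies on the paired subgenomes of this allotetraploid species.

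Skins came from embryos at stage 24, raised at 15 °C, and each array measured total RNA of 20 pooled whole skins. The groups were 2 samples from embryos kept in SP600125, a small molecule that inhibits JNK, the c-Jun N-terminal kinases, between stages 14 and 24, and 2 control samples with no treatment, for which no vehicle is named. The label gives the SP600125 dose as 100 mM, which the arrays cannot check. Separate clutches or cultures are not named in the labels, so a p-value here covers only sample-to-sample spread, some of which may be technical. Levels are RMA log2 values, and differences are SP600125 minus control on the log2 scale. Whether a difference reflects fewer cells of a type or less RNA per cell cannot be told apart in bulk tissue.

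Keratins are the intermediate filament proteins of epithelia. A filament is built from pairs of an acidic type I keratin, such as those numbered 12 to 19, and a basic type II keratin, such as keratin 7 or 8. The embryonic frog epidermis has an outer layer rich in its own set of keratins, and other keratins take over in the larva and the adult. In cornifying epithelia the plakins envoplakin and periplakin tie keratin filaments to the cell border, transglutaminases cross-link proteins there, and annexins with their S100 partners bind the inner face of the membrane in a calcium-dependent way. Uroplakins are membrane proteins that form plaques on the surface of the bladder epithelium in mammals. Vimentin is the intermediate filament protein of mesenchyme, early muscle and neural precursor cells, and is not a filament protein of most epithelia.

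In skins from SP600125-treated embryos the 6 brightest keratin probe sets, those of krt12.4, krt12.5, krt7 and krt70.S, had means from −0.02 to 0.09 log2 units off the controls, close to the upper limit of the arrays, and most other families differed by small amounts. The median difference was −0.04 over the 39 keratin probe sets, 0.01 over the annexins, 0.13 over S100, 0.18 over the uroplakins, 0.16 over the plakins, 0.20 over the transglutaminases and −0.51 over vimentin, beside 0.01 over all 16745 probe sets. The largest differences belonged to 2 of the 7 probe sets of anxa5.S, at −1.05 and −0.97, where annexin A5 is a phosphatidylserine-binding annexin. All 6 uroplakin and all 5 plakin probe sets had higher means, beside 52.8% of all probe sets. The 5 plakin probe sets, most of them of ppl.L, were all lowest in control replicate 1. Both vimentin probe sets had lower means. None of these differences passed the test.

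At an adjusted p under 0.05 limma called 0 of the 81 members (Benjamini-Hochberg over the whole array), beside 0% of all probe sets, and every member had an adjusted p of 1. At an unadjusted p under 0.05, 0 members were higher, against 0.699% of all probe sets, and 2 were lower, against 0.908% of all probe sets. Higher means were found for 45 members and lower means for 36, where 52.8% of all probe sets had higher and 47.2% lower means. Both SP600125 arrays lay above both controls for 12 members (14.8%) and below both for 6 members (7.41%), beside 11.9% and 9.25% of all probe sets. These shares are close to the background. With 2 arrays a group an exact permutation test cannot give a two-sided p below 0.333, so none is given for single probe sets.

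**Figure D1:**
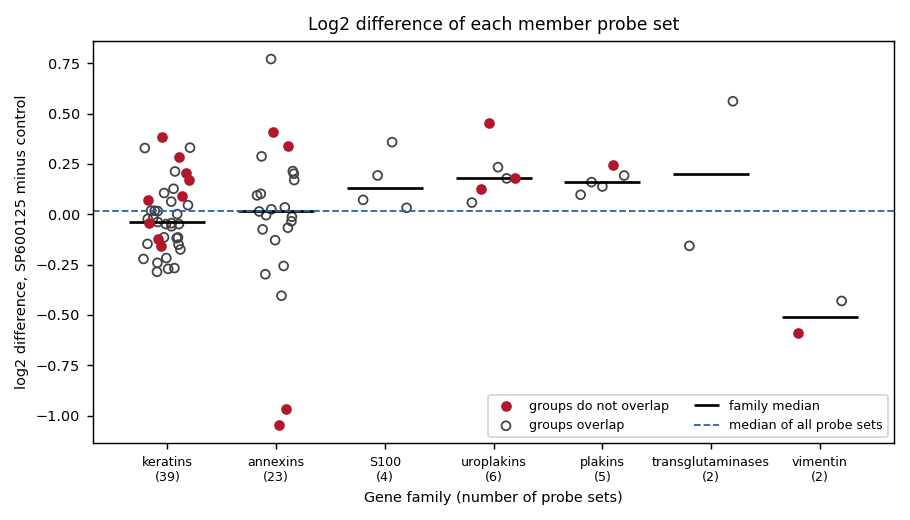
Log2 difference, SP600125 minus control, of each of the 81 member probe sets (points) by family, with the family median (black bars) and the median of all probe sets (dashed line). Filled points are the 12 higher and 6 lower probe sets whose groups do not overlap; the 2 lowest points are anxa5.S.

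The keratins of the embryonic epidermis are considered first. Krt12.4, listed in RefSeq with the synonyms epi-keratin and xk81a1, is a type I keratin used as the marker of non-neural ectoderm. The level of krt12.4.L was 13.88 and 13.92 in the SP600125 arrays, against 13.76 and 13.86 in the controls. Krt12.4.S read 13.81 and 13.78 after SP600125, against 13.68 and 13.79 in controls. The L copy lay higher in both SP600125 arrays by a small margin, while the groups of the S copy overlapped. The differences were 0.09 ± 0.19 and 0.06 ± 0.19 (SE of the limma fit), with 95% intervals from −0.43 to 0.61 and from −0.46 to 0.58. Krt12.5.S, the next gene in the cluster, read 13.73 and 13.72 in SP600125 skins, against 13.63 and 13.68 in control skins. It differed by 0.07 ± 0.19, again with groups that did not overlap.

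Krt70, listed in RefSeq with the synonym xk70, is another keratin of the frog embryo. Krt70.S read 14.11 and 14.22 after SP600125, against 14.14 and 14.10 in controls, and krt70.L read 13.09 and 13.09, against 13.15 and 12.60. Both copies overlapped between the groups, and the lower krt70.L value of control replicate 2 carried its difference of 0.21 ± 0.27, which was −0.06 without that array. The type II keratin krt7.L, listed with the synonym xenck55(5/6), had 4 probe sets. Those near the upper limit read 13.94 and 13.90 in SP600125 arrays, against 13.94 and 13.90 in controls, and 14.17 and 14.03, against 14.15 and 14.10. They differed by 0.00 ± 0.19 and −0.02 ± 0.19. The 2 dimmer probe sets of krt7.L differed by 0.33 ± 0.40, with overlapping groups, and by −0.16 ± 0.19, with both SP600125 arrays below both controls. One of the bright sets, Xl2.45542.2.A1_s_at, shares its cluster number with a probe set annotated to krt8.1.S, so its gene is uncertain.

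Of the 81 members, 7 had a mean within 1 log2 unit of the highest value in the table, 14.26. These were the keratin probe sets krt12.4.L, krt12.4.S, krt12.5.S, krt70.S and 2 of krt7.L, and 1 of upk1a.S. The highest and lowest of the 4 arrays lay 0.0424 to 0.160 log2 units apart for the 6 keratins (median 0.125), and 0.166 to 1.33 apart for the 17 keratin probe sets between this limit and a level of 5 (median 0.644). Among all 116 probe sets that close to the limit the median was 0.102, and among 11984 probe sets of middle level it was 0.728. Saturation of these probes was not tested, so the small differences of these keratins do not bound a difference in their RNA.

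**Figure D2:**
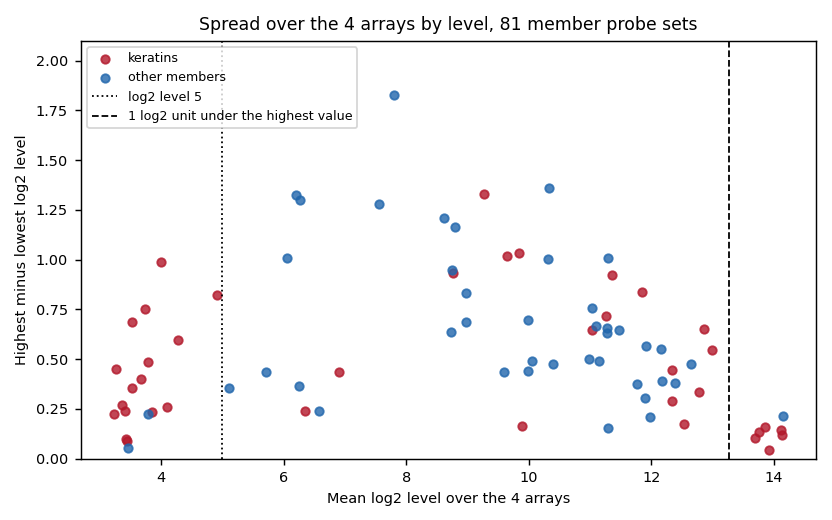
Mean log2 level over the 4 arrays (horizontal axis) against the highest minus the lowest array (vertical axis, log2 units) for the 81 member probe sets, keratins in red and other members in blue. The 6 keratin probe sets right of the dashed line, 1 log2 unit under the highest value of the table, spread over 0.160 at most.

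Other keratins of simple and embryonic epithelia differed in which array was lowest. The type I keratin krt19.L, with 2 probe sets, read 12.48 and 12.49 in SP600125 arrays, against 12.05 and 12.35 in controls, and 12.91 and 12.82, against 12.58 and 12.81. Both probe sets were lowest in control replicate 1, and the SP600125 arrays lay above both controls, by a margin under 0.01 in the second. They differed by 0.29 ± 0.21 and 0.17 ± 0.20.

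The homeolog krt19.S had its low array in the other group. Its brightest probe set read 10.79 and 11.51 after SP600125, against 11.33 and 11.42 in controls, and a second one read 8.46 and 9.79, against 9.17 and 9.65. SP600125 replicate 1 was the lowest array in all 5 krt19.S probe sets. Their differences ran from −0.29 ± 0.53 to −0.12 ± 0.38, and each turned positive without that array (0.03 to 0.38). The 5 probe sets are annotated to the same gene and are not replicates.

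The same array was lowest for krt18.1, the type I keratin of simple epithelia that pairs with keratin 8 and is listed with the synonym xkendob. Krt18.1.L read 11.30 and 12.14 after SP600125, against 11.94 and 12.04 in controls. Krt18.1.S read 10.65 and 11.29 in SP600125 arrays, against 11.03 and 11.13 in controls. In both, SP600125 replicate 2 was the highest array and replicate 1 the lowest, so the groups overlapped. The differences of −0.27 ± 0.35 and −0.11 ± 0.29 became 0.15 and 0.21 without SP600125 replicate 1. SP600125 replicate 1 was thus lowest for all 7 probe sets of krt18.1 and krt19.S, an array that was lowest for 24.1% of all probe sets.

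The partner of keratin 18, krt8.1.S, did not share this order. Its brightest probe set read 12.60 and 12.43 after SP600125, against 12.58 and 12.52 in controls, and SP600125 replicate 2 was the lowest array in all 3 of its probe sets. The differences were −0.04 ± 0.20, −0.05 ± 0.19 and −0.12 ± 0.21, with overlapping groups. Krt12.2, listed with the synonyms krt16 and fgk, had its widest spread in the controls. Krt12.2.L read 11.45 and 11.12 after SP600125, against 10.97 and 11.90 in controls, and krt12.2.S read 12.96 and 12.77, against 12.52 and 13.18. In both copies the 2 controls enclosed the 2 SP600125 arrays. Krt18.3.L differed by −0.06 ± 0.25.

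**Figure D3:**
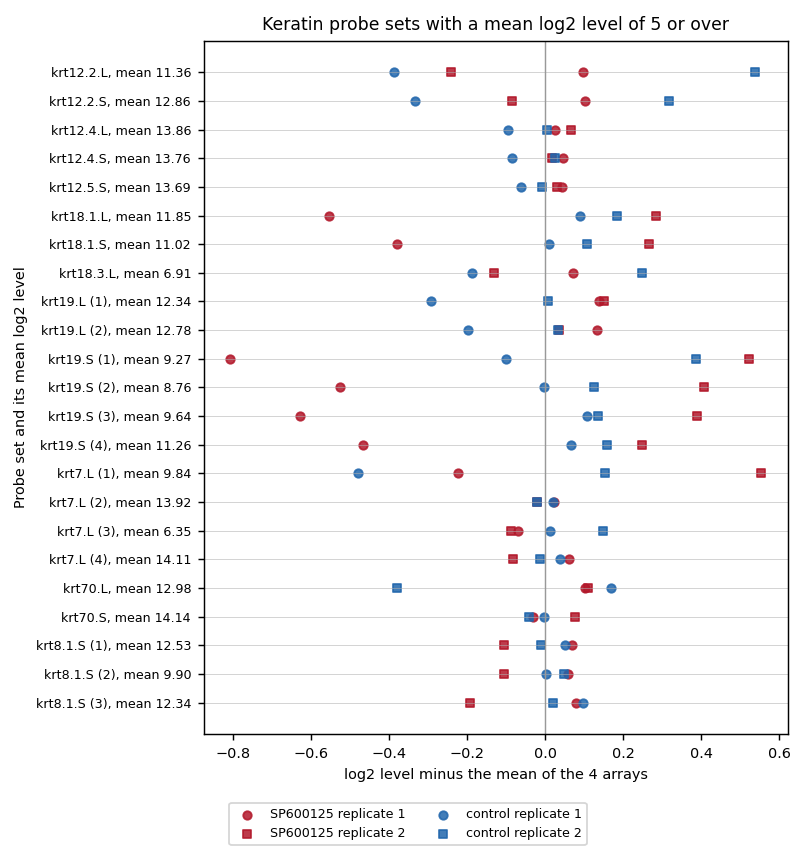
Log2 level of each of the 4 arrays minus their mean (horizontal axis) for the 23 keratin probe sets with a mean log2 level of 5 or over, SP600125 arrays in red and controls in blue, circles for replicate 1 and squares for replicate 2. In krt18.1 and krt19.S the red circle is lowest in every row shown.

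The remaining 16 keratin probe sets were dim, with a mean log2 level under 5. They include krt51.L, krt55.L and krt12.6.S, listed with the synonyms xak-a, xak-b and xak-c of adult frog keratins, and krt62.L, krt62.S and krt15.2.L, listed with the larval keratin synonyms xlk and xlk2. Krt51.L read 3.37 and 4.12 after SP600125, against 3.71 and 3.74 in controls, and krt62.L read 3.42 and 3.25, against 3.25 and 3.51. The groups of both overlapped. The adult keratin krt12.6.S read 3.15 and 3.15, against 3.14 and 3.59, and krt55.L read 3.20 and 3.15, against 3.37 and 3.22. Krt55.L lay lower in both SP600125 arrays, by −0.12 ± 0.19, at a level where the lowest values of the table lie.

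The dim keratin with the smallest unadjusted p was krt17.S, a type I keratin which in mammals is induced in stressed and wounded epidermis. It read 4.44 and 4.50 in SP600125 arrays, against 3.90 and 4.27 in controls, and its homeolog krt17.L read 3.40 and 3.44, against 3.49 and 3.44. The S copy lay higher in both SP600125 arrays (0.38 ± 0.23, unadjusted p = 0.163 in the limma fit), and the L copy lower (−0.04 ± 0.19). Krt57.L read 3.53 and 3.51, against 3.34 and 3.30, and differed by 0.20 ± 0.19 with no overlap. Krt50.S differed by 0.33 ± 0.27, with overlapping groups. The other dim keratin probe sets, krt12.6.L, krt15.1.S, krt15.2.L, krt61.L, krt62.S, krt78.6.L and krt78.7.L and 1 of krt19.S, had overlapping groups and differences of −0.27 to 0.13.

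Over all 39 keratin probe sets, 17 had higher and 22 lower means, 6 lay above both controls in both SP600125 arrays and 3 below. These are 15.4% and 7.69%, near the 11.9% and 9.25% of all probe sets. In the RefSeq gene order (assembly Xenopus_laevis_v10.1, used for names and neighbours only), 24 of the probe sets belong to the 2 homeologous clusters that run from krt70 past krt12.4 and hold type I genes. In these 14 means were higher and 10 lower (median 0.02). Another 14 belong to the 2 clusters that run from krt18.1 to krt80 and hold type II genes beside krt18.1, with 3 higher and 11 lower means (median −0.05). The difference between the clusters was not tested, and several of these probe sets belong to the same gene.

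The annexins held the members with the smallest unadjusted p. Of the 7 probe sets annotated to anxa5.S, Xl2.47268.2.A1_at read 10.01 and 9.59 after SP600125, against 10.74 and 10.95 in controls, and Xl2.22369.1.S1_at read 5.47 and 5.97, against 6.58 and 6.79. Both SP600125 arrays lay below both controls, with gaps of 0.73 and 0.61 log2 units between the groups. The differences were −1.05 ± 0.25 (2.07-fold lower, 95% interval −1.73 to −0.37, unadjusted p = 0.0124) and −0.97 ± 0.26 (95% interval −1.70 to −0.24, unadjusted p = 0.0208), with an adjusted p of 1 in limma. The differences ran from −1.26 to −0.84 and from −1.22 to −0.72 over the alternatives.

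The other 5 probe sets of anxa5.S did not show this difference. They differed by 0.20 ± 0.23, 0.02 ± 0.18, 0.01 ± 0.21, −0.00 ± 0.34 and −0.30 ± 0.46, all with overlapping groups. The one at 0.02, Xl2.48138.1.A1_at, was dim, with a mean log2 level of 3.46, which limits what it can show. Another of these 5, Xl2.47268.1.S1_at, carries the same cluster number as Xl2.47268.2.A1_at. It read 8.47 and 8.47 after SP600125, against 8.16 and 9.37 in controls, so that the controls enclosed the SP600125 arrays. The homeolog anxa5.L read 8.38 and 8.96, against 8.58 and 9.02, a difference of −0.13 ± 0.31 with overlapping groups. The differences between these probe sets were not tested, and which of them measure the annexin transcript was not tested.

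**Figure D4:**
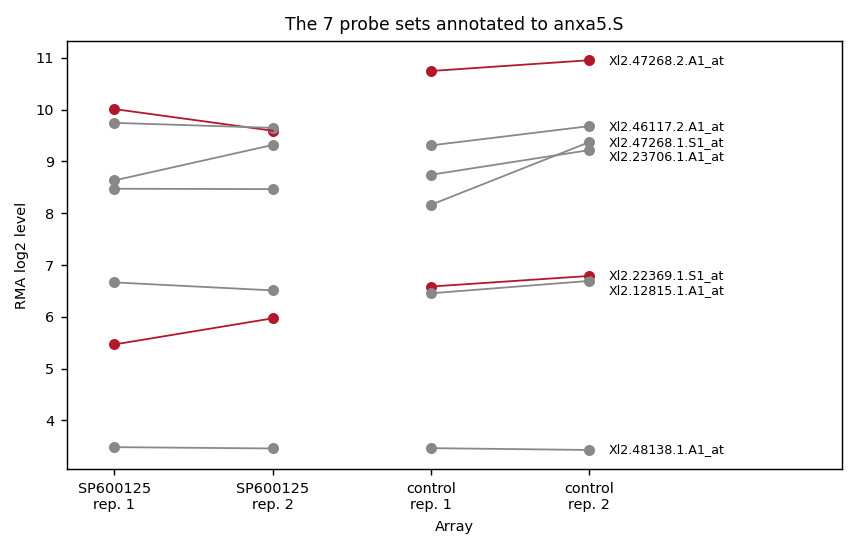
RMA log2 level (vertical axis) of the 7 probe sets annotated to anxa5.S on the 2 SP600125 and 2 control arrays; lines join arrays of 1 group. The 2 probe sets in red lay lower in both SP600125 arrays, at −1.05 and −0.97, and the 5 in grey did not.

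Annexin A2 and its partner S100A10 form a complex at the membrane that links it to actin. The 2 probe sets of anxa2.L read 12.19 and 12.04 in SP600125 arrays, against 11.63 and 11.79 in controls, and 12.41 and 12.24, against 11.85 and 12.11. Both lay higher in each SP600125 array than in each control, by 0.41 ± 0.20 and 0.34 ± 0.21. Anxa2.S read 11.66 and 12.03, against 11.67 and 11.69, with 1 SP600125 array just under both controls (0.17 ± 0.23). S100a10.S read 11.21 and 11.75 after SP600125, against 10.74 and 11.50 in controls, and the 2 probe sets of s100a10.L differed by 0.07 ± 0.44 and 0.19 ± 0.37. The s100a10 groups overlapped in all 3 probe sets, with the arrays numbered 2 above those numbered 1 in each group. S100a11.L, listed with the synonym dicalcin, read 11.25 and 10.75, against 10.78 and 11.14, with no such order (0.03 ± 0.28).

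The largest higher mean among all members was that of anxa4.S, a calcium-dependent membrane-binding annexin of epithelia. It read 8.18 and 8.19 after SP600125, against 6.50 and 8.33 in controls. Control replicate 1 alone lay low, and the difference of 0.77 ± 0.66 became −0.14 without it. The homeolog anxa4.L read 12.68 and 12.81, against 12.34 and 12.73 (0.21 ± 0.23). Anxa4.L was lowest in the same control array, and its groups overlapped. Of the other annexins, anxa7.S differed by 0.29 ± 0.30 and 0.10 ± 0.27, anxa6.L by −0.41 ± 0.35, anxa3.L by 0.09 ± 0.26 and anxa9.L, listed with the synonym pemphaxin, by −0.07 ± 0.33. The 4 probe sets of anxa11 lay between −0.26 and 0.03, and anxa13.L, a dim probe set, at −0.04. All of these overlapped between the groups. In all, 12 annexin probe sets had higher and 11 lower means, with 2 above and 2 below both controls (8.70% each, beside 11.9% and 9.25% of all probe sets).

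Of the uroplakins, 6 of 6 probe sets had higher means and in 3 the groups did not overlap, beside 52.8% and, for higher groups, 11.9% of all probe sets. Uroplakin 1a and 1b are tetraspanins. Upk1a.S read 11.21 and 11.43 after SP600125, against 10.77 and 10.97 in controls, and its brighter probe set, near the upper limit, 14.18 and 14.24, against 14.15 and 14.03. Both lay higher in each SP600125 array, by 0.45 ± 0.21 (unadjusted p = 0.099 in the limma fit, the smallest among the higher members) and 0.12 ± 0.19. Upk3a.L, which encodes uroplakin 3a, which in mammals pairs with uroplakin 1b, read 12.07 and 12.06, against 11.86 and 11.92, and differed by 0.18 ± 0.19.

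Upk1b.L read 11.80 and 11.38 in SP600125 arrays, against 11.56 and 11.15 in controls, upk1b.S 11.41 and 11.31, against 11.50 and 10.87, and upk1a.L 11.37 and 11.29, against 11.22 and 11.33. These groups overlapped, with differences of 0.23 ± 0.27, 0.18 ± 0.29 and 0.06 ± 0.19. The median over the 6 probe sets stayed above 0 with each array left out, from 0.09 without control replicate 2 to 0.27 without control replicate 1.

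The plakins were higher in mean in 5 of 5 probe sets, all 5 of which were lowest in control replicate 1. That array was lowest for 40 of the 81 members (49.4%), beside 32.7% of all probe sets, so this order is not particular to the plakins. It was lowest for 9 of 23 keratin and 11 of 21 annexin probe sets with a mean of 5 or over. Among S100 it was lowest for 3 of 4 probe sets, and among uroplakins for 3 of 6. Evpl.L read 12.17 and 12.27 after SP600125, against 11.93 and 12.32 in controls. The brightest of 4 ppl.L probe sets read 12.53 and 12.41, against 12.15 and 12.47, and the 4 differed by 0.14 to 0.25, with SE from 0.21 to 0.32. In 1 of them both SP600125 arrays lay above both controls. The family median of 0.16 was −0.00 without control replicate 1. Transglutaminase 2, the broadly expressed tissue transglutaminase, was the only member of its family on the array under this rule. Tgm2.S read 8.30 and 7.36, against 7.02 and 7.52, with SP600125 replicate 1 alone above the others (0.56 ± 0.41). Tgm2.L read 5.01 and 5.05, against 5.36 and 5.01 (−0.16 ± 0.22).

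Vimentin was lower in mean in both homeologs. Vim.L read 10.07 and 9.98 after SP600125, against 10.98 and 10.25 in controls, and vim.S read 8.95 and 8.22, against 9.39 and 8.65. Both SP600125 arrays lay below both controls for vim.L, while SP600125 replicate 1 lay above control replicate 2 for vim.S. The differences were −0.59 ± 0.32 and −0.43 ± 0.41 (unadjusted p = 0.135 and 0.348 in the limma fit), and −0.22 and −0.06 without control replicate 1. Within replicate numbers 1 and 2 the differences were −0.91 and −0.27 for vim.L and −0.44 and −0.42 for vim.S.

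**Figure D5:**
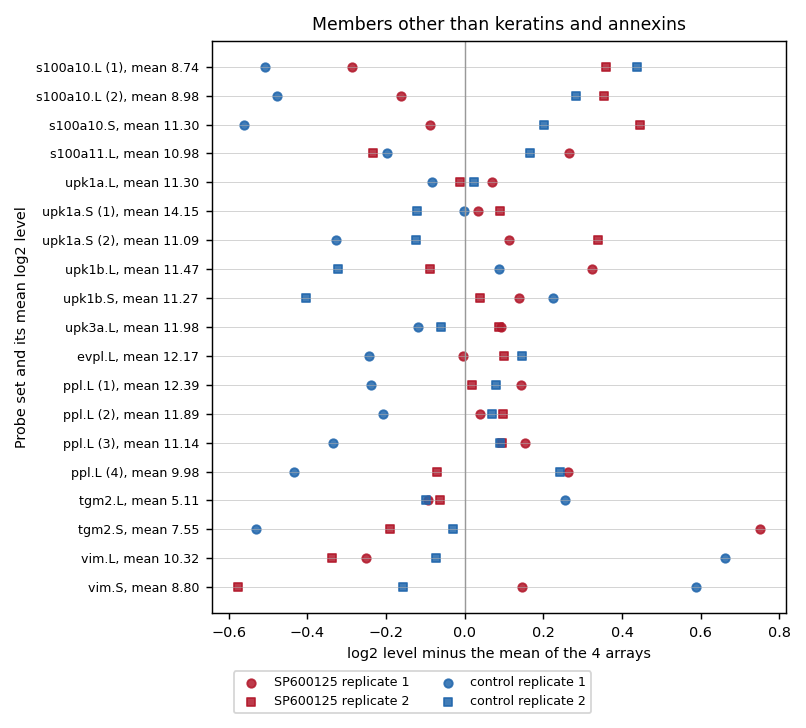
Log2 level of each of the 4 arrays minus their mean (horizontal axis) for the S100, uroplakin, plakin, transglutaminase and vimentin probe sets, SP600125 arrays in red and controls in blue, circles for replicate 1 and squares for replicate 2. Control replicate 1 (blue circle) is lowest in all 5 plakin rows, and the vimentin rows have it highest.

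Markers of muscle, endoderm and notochord had lower means beside vimentin. In the marker lists homeologs were counted apart, and copies of 1 gene are not independent. With copies joined the lists hold 9 muscle, 6 endoderm, 4 notochord and 8 neural genes. Of 11 muscle and somite marker genes all 11 had lower means. Both SP600125 arrays lay below both controls for 8 of them (72.7%), beside 9.25% of all probe sets. At an unadjusted p under 0.05 in limma 4 were lower, against 0.908% of all probe sets. The mean log2 level of these genes was 5.53 and 6.04 in SP600125 arrays, against 7.45 and 6.87 in controls. The brightest of them, actc1.L, a sarcomeric actin, read 9.33 and 8.93, against 11.77 and 10.44. Of 10 endoderm and gut markers all 10 had lower means, and the list averaged 6.07 and 6.02, against 6.94 and 6.98. In this list 7 markers (70%) lay below both controls, and 5 were lower at an unadjusted p under 0.05 in limma. Foxa1.L and foxa1.S, at −0.08 and −0.02, are in this list and also in that of goblet and small secretory cells. The marker lists were chosen with earlier results of these data known. Of 6 notochord markers all 6 had lower means, at 6.06 and 5.08, against 6.61 and 5.77, and 2 (33.3%) lay below both controls. Neural markers were mixed, with 8 of 11 lower and 3 higher in mean. Both SP600125 arrays lay above both controls for 1 gene and below for 1 (9.09% each, beside 11.9% and 9.25% of all probe sets). The neural markers averaged 7.15 and 7.05, against 7.94 and 6.99. Their median difference was −0.74 within replicate number 1 and 0.24 within number 2. Of these lists 3 muscle, 2 endoderm, 1 notochord and 0 neural genes had a mean under 5. Their part in the vimentin values was not tested, nor was it for krt18.1 and krt8.1.S, whose keratins also occur in embryonic tissues other than skin.

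The 12 outer epidermis markers, of which 6 are members (both copies of krt12.4 and krt18.1, krt12.5.S and krt8.1.S), averaged 11.60 and 11.58 in SP600125 skins, against 11.56 and 11.45 in control skins. Of these 12 markers 8 had higher means. Both SP600125 arrays lay above both controls for 5 (41.7%) and below for 0, beside 11.9% and 9.25% of all probe sets. These 5 were grhl3.L, both copies of epcam, krt12.4.L and krt12.5.S. Krt12.4.L and krt12.5.S lay near the upper limit, with gaps of 0.020 and 0.038 log2 units between the groups. With copies joined the 12 markers stand for 8 genes, and the 8 ionocyte markers below for 7. The outer epidermis markers hold grhl3.L, a transcription factor of the superficial layer, at 9.50 and 9.66, against 9.32 and 9.31. Its brighter homeolog grhl3.S read 10.73 and 10.69, against 10.82 and 10.67, with overlapping groups. The adhesion gene epcam.S read 11.90 and 11.91, against 11.74 and 11.78. The 4 markers with lower means were grhl3.S, krt8.1.S and both copies of krt18.1. Of 6 basal epidermis genes listed only 2 matched by symbol, so that layer is poorly covered by the list. Another listed gene, krt5.7, is a RefSeq synonym of krt7.L, whose probe sets are described above. The 11 multiciliated cell markers had a median difference of 0.04. Goblet and small secretory cell markers averaged 6.87 and 6.76, against 6.77 and 6.87, and ionocyte markers 10.08 and 9.76, against 9.84 and 9.64. Of the 8 ionocyte markers 6 had higher means (median 0.28). In 5 of them (62.5%) both SP600125 arrays lay above both controls, and in 1 below, beside 11.9% and 9.25% of all probe sets. At an unadjusted p under 0.05 in limma 1 ionocyte marker, foxi1.L, was higher, against 0.699% of all probe sets. Blood and macrophage markers averaged 5.80 and 5.45, against 5.73 and 5.56. A mean under 5 was found for 5 of 11 blood and macrophage and 3 of 6 goblet and small secretory genes. The same held for 2 multiciliated and 0 ionocyte genes, and dim genes limit what these averages can show. The dimmest outer epidermis marker, grhl1.L, averaged 8.14 over the 4 arrays, so the markers of the labelled tissue were present.

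Genes that work beside the members gave no call either. Of 14 desmosome and filament anchoring genes, with the probe set of highest mean for each, 10 had higher means and 3 lay above both controls (median 0.11). These 3 are 21.4% of the list, with 0 below both controls, beside 11.9% and 9.25% of all probe sets. Desmoplakin, dsp.S, which anchors keratin filaments in desmosomes, differed by 0.32 ± 0.27, and perp.S, a desmosomal tetraspan protein, by 0.21 ± 0.20. Of 19 desmosome and 29 barrier genes listed, 10 and 10 matched by symbol, some with both homeologs, so these sets are covered only in part. Of 13 barrier and cornification genes 9 had higher means, with 1 above and 1 below both controls (7.69% each, median 0.11). That list holds the protease gene capn1.S at 0.34 ± 0.30 and serpinb6.L, a protease inhibitor, at 0.64 ± 0.58.

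Of 18 other intermediate filament, lamin and keratin-associated genes 9 had higher means, with 3 above and 1 below both controls (median −0.01). These are 16.7% and 5.56% of the list, beside 11.9% and 9.25% of all probe sets. The one below was nestin, nes.S, a filament protein of neural and muscle precursors, at 5.08 and 5.94 after SP600125, against 7.87 and 6.35 in controls (−1.60 ± 0.64). Lamin B2, lmnb2.S, differed by −0.67 ± 0.69 with overlapping groups. It read 5.25 and 7.16 after SP600125, against 6.84 and 6.90 in controls, with SP600125 replicate 1 alone low. Its dim homeolog lmnb2.L differed by 0.12 ± 0.23. Of 32 epidermal differentiation regulators 15 had higher means, with 3 above and 2 below both controls (9.38% and 6.25%, median −0.02). Examples are zfp36.S, which promotes mRNA decay, at 0.45 ± 0.20, and hes1.L, a Notch target, at −0.52 ± 0.28. Of 19 filament and 31 regulator genes listed, 12 and 23 matched by symbol, some with both homeologs. Over the 4 lists 0 genes passed an adjusted p under 0.05 in limma, and 0 passed an unadjusted p under 0.05.

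Homeologs could be compared for 17 genes with both copies measured, by the probe set of highest mean. Differences had the same sign in 11 genes, of which 7 were higher and 4 lower in both copies, and opposite signs in 6. The copies of krt12.4, krt70, anxa2, anxa4, s100a10, upk1a and upk1b were both higher, and those of krt18.1, krt62, anxa5 and vim both lower. Krt19, krt17, krt12.2, krt12.6, anxa11 and tgm2 had opposite signs. The anxa5.S probe set of highest mean was Xl2.47268.2.A1_at, at −1.05, a difference that most probe sets of that gene did not show. Both copies of krt62, krt17 and krt12.6 were dim, so their signs carry little weight. Probes of 1 copy can also bind the transcript of the other, so the copies are not independent. The share of same-sign pairs over all genes of the array is not given, so 11 of 17 cannot be set against it.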

How the data were processed

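Total RNA of whole embryonic skins was measured on 4 Affymetrix arrays. The authors deposited log2 values, 1 for each probe set on each array. RMA and affy are named in the submitters' processing notes. RMA equalizes the distributions of the arrays, which hides any change common to most transcripts. Their versions, options and filters were not given in the sources used here. Array medians ran from 6.85 to 6.94. Precision is limited by the number of arrays.

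Of 16755 probe sets 10 controls were left out. Symbols came from the platform annotation of GEO, possibly outdated, and were the same in a RefSeq gene table for all 81 members. The groups were compared with limma 3.58.1 in R 4.3.3 (lmFit, eBayes, 2 residual and 2.10 prior degrees of freedom, two-sided, Benjamini-Hochberg over all probe sets), which was tested on simulated data. Dim means a mean log2 level under 5. Lists used the probe set of highest mean per symbol. Python 3.11.15 with matplotlib 3.10.9 drew the figures. The members, gene lists and the rule for named genes (the smallest p per family and direction, the brightest keratins, their other probe sets and homeologs, and 2 genes per accompanying list) were chosen with earlier results of these data known. Genes outside that rule are given to account for every member. The alternatives were the replicate block, filters, renewed normalization, trend with robust fitting, and each array left out.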

Additional observations from a re-analysis of the deposited data

How the results depend on the processing

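The count of members past an adjusted p under 0.05 was 0 under each alternative run, as was that of all probe sets, also at 0.1. The replicate numbers are shared by the groups but the labels give them no meaning. Same-numbered arrays deviated together over all probe sets (r = 0.585 across probe sets), less over the members (0.175) and keratins (0.0286). This r leaves out a shift that probe sets share. Of the sum of squares between arrays, replicate number held 62.7% over all probe sets, 44.4% over members and 52.4% over keratins. Treatment held 20.8%, 27.0% and 15.5%. With the replicate block the count stayed 0 and the smallest adjusted p was 0.761; members with an unadjusted p under 0.05 stayed at 2, while all probe sets so called numbered 1063, against 269 without the block. Leaving out 1 array changed medians more than any other alternative. The keratin median (−0.04) was −0.06 with cyclic loess and −0.04 with quantile normalization applied again. With 1 array left out it lay between −0.030 and 0.065, and the annexin median (0.01) between −0.094 and 0.178. Likewise S100 (0.13) lay between −0.17 and 0.56, uroplakins (0.18) between 0.088 and 0.267, and plakins (0.16) between −0.00 and 0.32. Transglutaminases (0.20) lay between −0.03 and 0.43, and vimentin (−0.51) between −0.88 and −0.14. Members with groups that do not overlap numbered 20 to 42 higher and 13 to 25 lower, more than with all arrays because 3 arrays are easier to separate. The share of all probe sets that separate with 1 array left out is not given, so these counts cannot be set against it. Of 58 named probe sets, 30 changed sign under at least 1 alternative. Near the upper limit and at dim levels the signal limits what can be seen.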
